A study of Mus musculus with 12 samples.

Results

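Cultured hippocampal neurons that had received both DAPT and soluble ErbB4 (sErbB4) were compared with cultures that had received vehicle alone. The comparison used 6 of the 12 libraries of the experiment, 3 of each condition, chosen by their treatment label and by no measured value. Neurons came from the hippocampus of WT pups at P4 and were kept for 8 d in culture before treatment, and no other genotype was part of the experiment. The DAPT + sErbB4 cultures were given 20 µM DAPT (overnight or for a day, since the sources differ) and then 20 nM sErbB4 for 4 h before RNA was collected. Vehicle cultures were given DMSO in place of DAPT and PBS in place of sErbB4. The other libraries, 3 with DAPT alone and 3 with sErbB4 alone, entered the shared estimate of the spread and are set beside the comparison. Each condition had 3 platings made from several pups of separate litters. The labels do not tie a library to a plating or a litter, so p values measure the spread between these libraries. Both agents were absent from the vehicle cultures, so the contrast with vehicle cannot say which agent a difference belongs to. The question it answers is how far RNA levels in cultures given DAPT and sErbB4 lay from those of cultures given vehicle. Inhibition of γ-secretase and binding of Nrg1 by sErbB4 were not measured in these libraries.

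γ-Secretase is a membrane protease that cuts the transmembrane stubs of many type I proteins. Notch receptors are its best known substrates: the freed Notch intracellular domain joins RBPJ on DNA and turns on genes of the Hes and Hey families, which keep neural progenitors and glia from taking a neuronal fate. Type III Nrg1 on neurons is another substrate. When ErbB4 binds it, the Nrg1 intracellular domain can be released and move to the nucleus, which is called back signaling, and sErbB4 is the ErbB4 ectodomain used to start it. DAPT blocks γ-secretase and therefore both kinds of cleavage.

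Gene levels are given in CPM (counts per 1000000 counts of named genes, normalised by TMM) and differences as log2 FC of DAPT + sErbB4 over vehicle, with its SE. Calls came from edgeR's quasi-likelihood test over 15656 genes, with p adjusted by Benjamini-Hochberg, and needed an adjusted p under 0.05 and a log2 FC beyond 0.32 in either direction. Adjusted p values are from this test unless another is named. CPM is not corrected for transcript length, so levels are compared between libraries and not between genes. Library totals were 46677699 to 53370145 estimated counts with DAPT + sErbB4 and 36518802 to 51864356 with vehicle, of which named genes took 24372361 to 28236565 with DAPT + sErbB4 and 18697788 to 27509520 with vehicle. The ribosomal precursor gene Rn45s accounted for 40.7 to 44.2% of what named genes took with DAPT + sErbB4 and for 41.4 to 44.4% with vehicle. On the first principal component of the 6 libraries (33.9% of the variance) DAPT + sErbB4 lay at 24.5 to 31.1 and vehicle at -41.3 to -16.0. The second component (20.7%) set vehicle replicate 2 (36.7) and vehicle replicate 3 (-37.1) apart.

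The label of neuronal cultures was checked against markers. Pan-neuronal genes summed to 2757 to 2927 CPM with DAPT + sErbB4 and 2217 to 2293 CPM with vehicle, but glial RNA was also abundant. Astrocyte genes summed to 9592 to 9985 CPM with DAPT + sErbB4 and 10196 to 11329 CPM with vehicle, with Gfap, the astrocyte intermediate filament, at 4638 ± 129 CPM with DAPT + sErbB4 and 4229 ± 292 CPM with vehicle. Microglia genes reached 381 to 433 CPM with DAPT + sErbB4 and 364 to 407 CPM with vehicle, while the 6 endothelial genes together stayed at 7.82 to 9.81 CPM with DAPT + sErbB4 and 9.10 to 9.61 CPM with vehicle. The libraries thus held RNA of neurons and of glia, and in bulk RNA fewer cells of a type and less RNA per cell cannot be told apart.

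Between DAPT + sErbB4 and vehicle 2361 genes were called, 15.1% of those tested. Of these, 1056 were higher with DAPT + sErbB4 (6.75%) and 1305 were lower (8.34%). The counts of list members called that follow are to be read against these shares. The larger changes were mostly decreases, since 238 called genes were more than 2-fold lower and 62 more than 2-fold higher. The median log2 FC was 0.45 over the genes called higher and -0.55 over those called lower, against 0.01 over all genes tested. The levels of the 3 DAPT + sErbB4 libraries did not overlap those of the 3 vehicle libraries in 2343 of the 2361 called genes. This was also so in 7210 of all 15656 genes tested, so a lack of overlap is common and adds little to a call.

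**Figure D1:**
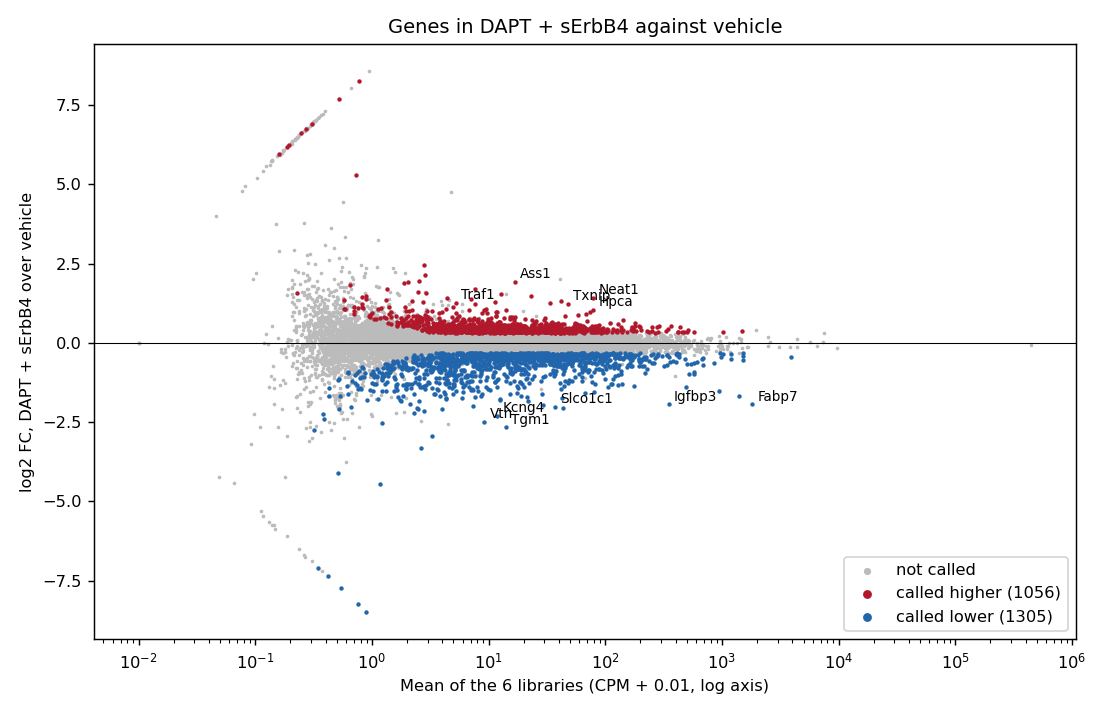
Each point is a gene, with its mean over the 6 libraries in CPM (log axis, 0.01 added) and its log2 FC of DAPT + sErbB4 over vehicle. Red points are the 1056 genes called higher and blue points the 1305 called lower, and the straight diagonal rows are genes listed at 0 in every library of one condition. Fabp7 and Igfbp3 stand out among abundant genes as strongly lower.

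The genes that Notch turns on were lower with DAPT + sErbB4. Of 6 Notch target genes tested, 4 were called lower and none higher, and all 6 log2 FC were negative with a median of -1.23. It was -0.32 with limma on log2(CPM + 2) and -0.37 with a fit of the 6 libraries alone, which tested 5 of the genes. The 2 CPM added before the log shrink the log2 FC of genes at low levels, here and wherever limma is named below. A smaller value or a missed call with limma therefore says little about such genes. Hes1 (chr16:30065357-30067796 in RefSeq GRCm38.p6), a repressor that holds progenitors in an undifferentiated state, had 1.35, 1.52 and 1.67 CPM in the DAPT + sErbB4 libraries, against 7.01, 6.41 and 6.01 CPM in the vehicle libraries. Hes1 fell by 2.09 on the log2 scale (SE 0.13, adjusted p = 8.48e-07). The groups did not overlap, as was so for 7210 of all 15656 genes tested. Hes5, the other main Notch effector of neural progenitors, had 1.30, 0.615 and 0.925 CPM in the DAPT + sErbB4 libraries, against 4.66, 4.21 and 3.14 CPM in the vehicle libraries, again without overlap (log2 FC -2.09, SE 0.31, adjusted p = 3.67e-04). Heyl was called lower at very low levels, with 0.0870, 0.0724 and 0.0711 CPM in the DAPT + sErbB4 libraries, below the 0.107 to 0.169 CPM that a count of 3 is worth, against 0.352, 0.730 and 0.546 CPM in the vehicle libraries. Hey1 was lower by less, with 71.6 ± 1.22 CPM with DAPT + sErbB4 and 92.8 ± 4.84 CPM with vehicle (log2 FC -0.37, SE 0.05, adjusted p = 1.85e-04). Hey2 (-0.34, SE 0.21, adjusted p = 0.283) and Nrarp (-0.20, SE 0.09, adjusted p = 0.127), a feedback inhibitor of Notch, did not pass. Radial glia and astrocyte genes, which mark cells with active Notch, also moved in these libraries, with summed levels given with those lists, and their part in the Notch result was not tested. Heyl was not called without DAPT + sErbB4 replicate 2 or 3 or vehicle replicate 2 (adjusted p = 0.0513 to 0.0558) or with limma (log2 FC -0.30).

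Among 20 genes of Notch receptors, ligands and modifiers, 7 were called lower and 1 higher. Lfng, a glycosyltransferase that adds sugars to Notch and tunes its response to ligands, had 26, 24.7 and 24.4 CPM in the DAPT + sErbB4 libraries, against 63.3, 63.5 and 63.3 CPM in the vehicle libraries. The 3 vehicle libraries were nearly equal, the DAPT + sErbB4 libraries were all far below them, and Lfng fell by 1.34 (SE 0.07, adjusted p = 9.51e-08). The receptors Notch1 (log2 FC -0.56, SE 0.10, adjusted p = 0.0019, 26.1 against 38.3 CPM), Notch3 (-1.23, SE 0.09, adjusted p = 1.83e-06, 3.92 against 9.20 CPM) and Notch4 (-1.01, SE 0.28, adjusted p = 0.0174, 0.470 against 0.952 CPM) were lower. Notch2 had 48 ± 0.925 CPM with DAPT + sErbB4 and 39.1 ± 2.42 CPM with vehicle and was not called at a log2 FC of 0.30, SE 0.12, adjusted p = 0.0918. The ligand genes Jag1 (-1.02, SE 0.10, adjusted p = 1.49e-05), Dll1 (-0.45) and Dll3 (-0.51) were called lower, and Jag2 (0.30) and Dll4 (-0.11) were not. Rbpj, the DNA-binding partner of the Notch intracellular domain, was at 13.5 ± 0.846 CPM with DAPT + sErbB4 and 13.5 ± 0.510 CPM with vehicle, a log2 FC of 0.00. The member called higher was Maml3, a coactivator of the Notch complex (log2 FC 0.34, SE 0.08, adjusted p = 0.00813). Dner, which encodes a neuronal Notch ligand, was not called (0.11). Notch4 was not called without DAPT + sErbB4 replicate 1, 2 or 3 or vehicle replicate 2 or 3 (adjusted p = 0.0506 to 0.0712) or with DESeq2 (adjusted p = 0.0722) or limma (log2 FC -0.27). Dll3 was not called without DAPT + sErbB4 replicate 2 or 3 or vehicle replicate 1 (adjusted p = 0.0587 to 0.0899). Maml3 was not called without DAPT + sErbB4 replicate 1 or vehicle replicate 1 or 3 (log2 FC 0.29 to 0.32) or with limma (log2 FC 0.22).

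Since RBPJ is the factor through which Notch is known to act on DNA, the promoters of a pair of these genes are shown from RefSeq (GRCm38.p6), each as the 250 bases before the start of the gene, 5′ to 3′ on the strand of the gene. Capitals mark the letters GTGGGAA, the core of the RBPJ motif, found on either strand (TTCCCAC on the opposite one). The matches in Hes5 lie 83 and 226 bases before the start, and that of Lfng 109 bases before it.
Hes5 (chr4:154960673-154960922, plus strand): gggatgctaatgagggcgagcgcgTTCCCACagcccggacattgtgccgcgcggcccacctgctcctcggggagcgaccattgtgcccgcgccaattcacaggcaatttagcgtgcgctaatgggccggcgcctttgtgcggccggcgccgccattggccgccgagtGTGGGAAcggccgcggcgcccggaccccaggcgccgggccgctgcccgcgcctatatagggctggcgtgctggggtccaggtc
Lfng (chr5:140607091-140607340, plus strand): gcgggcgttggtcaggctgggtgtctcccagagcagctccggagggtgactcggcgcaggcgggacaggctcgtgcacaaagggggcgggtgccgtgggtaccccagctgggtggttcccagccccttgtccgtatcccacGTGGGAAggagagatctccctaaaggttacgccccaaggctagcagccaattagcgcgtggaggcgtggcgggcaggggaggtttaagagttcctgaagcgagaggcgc
GTGGGAA occurs in 7.54% of the 11891 tested genes with a promoter in the RefSeq table, in windows of 300 bases that reach 50 bases past the start. It occurs in 2 of the 3 Notch target genes with a promoter there and in 1 of 19 genes of the Notch receptor list. That 1 is Lfng, so the promoter shown is not typical of its list. Over genes called lower the share was 7.55% and over genes called higher 10.0%. A match is a description of the letters and not a binding site.

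Cell division genes were lower almost throughout. Of 28 mitosis genes, 27 were called lower and none higher, with a median log2 FC of -1.39 (-0.88 with limma), and the exception was Cdc25c (-1.51, SE 0.60, adjusted p = 0.0859). Summed over the list, mitosis genes gave 87.2 to 90.3 CPM with DAPT + sErbB4 and 215 to 234 CPM with vehicle. Ube2c, an enzyme that marks mitotic cyclins for destruction, had 4.61, 6.05 and 5.90 CPM in the DAPT + sErbB4 libraries, against 19.6, 20.7 and 17.6 CPM in the vehicle libraries (log2 FC -1.79, SE 0.10, adjusted p = 3.41e-07). Ccnb1, the cyclin of mitotic entry, had 3.57, 4.85 and 4.59 CPM in the DAPT + sErbB4 libraries, against 13.3, 14.6 and 11.8 CPM in the vehicle libraries (log2 FC -1.60, SE 0.12, adjusted p = 2.75e-06). Ccna2, the cyclin of S and G2 phase, and Plk1, a mitotic kinase, fell by 1.55 and 1.52 on the log2 scale, with means of 3.04 against 8.99 CPM and 2.70 against 7.81 CPM. None of these 4 genes overlapped between the groups, as was so for 7210 of all 15656 genes tested, and their levels were low in both.

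DNA replication genes moved the same way with smaller changes. All 27 tested had a negative log2 FC (median -0.55, or -0.34 with limma) and 15 were called lower. Those with the largest changes at a mean of 5 CPM or more were Uhrf1 (-1.36, SE 0.16, adjusted p = 8.12e-05), which carries DNA methylation through S phase, Rrm2 (-1.22, SE 0.07, adjusted p = 5.39e-07), the regulated subunit of ribonucleotide reductase, and the helicase subunits Mcm5 (-1.18, SE 0.16, adjusted p = 2.49e-04) and Mcm3 (-0.74, SE 0.14, adjusted p = 0.00171). Pcna, the polymerase clamp, was at 61.6 ± 2.15 CPM with DAPT + sErbB4 and 73.6 ± 3.21 CPM with vehicle and missed the fold limit (-0.26), and so did Mcm7 (-0.15). Among 21 genes of G1 control, 5 were called lower and 2 higher. Ccnd1 and Ccnd2 encode D-type cyclins that drive entry into the cell cycle. Ccnd1 had 33.6, 34.1 and 33.7 CPM in the DAPT + sErbB4 libraries, against 99.4, 103 and 101 CPM in the vehicle libraries (log2 FC -1.58, SE 0.09, adjusted p = 4.79e-07), and Ccnd2 had 65.1, 69.2 and 65.4 CPM in the DAPT + sErbB4 libraries, against 171, 157 and 159 CPM in the vehicle libraries (log2 FC -1.29, SE 0.08, adjusted p = 9.37e-07). In both genes every DAPT + sErbB4 library was below every vehicle library, and a lack of overlap was seen in 7210 of all 15656 genes tested. Ccnd3 (-0.55), Cdk2 (-0.59) and the inhibitor Cdkn2c (-0.47) were also lower, while Gadd45g (0.58, SE 0.06, adjusted p = 5.04e-05) and Btg1 (0.45, SE 0.07, adjusted p = 3.60e-04), genes that restrain growth, were higher.

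The promoters of cell cycle genes share short sequences, and 3 are shown (same source and layout) to let the groups be compared. In Cdk1, the mitotic kinase, and Ube2c capitals mark TTTGAA, the core of the CHR element (TTCAAA on the opposite strand). In Mcm5 they mark the E2F motifs TTTCGCGC and TTTGGCGC (GCGCGAAA and GCGCCAAA on the opposite strand), which here overlap. The Cdk1 sequence also holds TTTCGCGC, in lower case, 131 bases before the start. Cdk1 and Mcm5 were chosen for display after their values were seen.
Cdk1 (chr10:69352913-69353162, minus strand): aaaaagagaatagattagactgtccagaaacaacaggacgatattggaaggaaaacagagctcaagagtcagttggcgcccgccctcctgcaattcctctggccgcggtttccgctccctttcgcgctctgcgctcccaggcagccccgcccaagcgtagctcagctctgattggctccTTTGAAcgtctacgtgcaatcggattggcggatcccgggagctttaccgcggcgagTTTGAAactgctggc
Ube2c (chr2:164769679-164769928, plus strand): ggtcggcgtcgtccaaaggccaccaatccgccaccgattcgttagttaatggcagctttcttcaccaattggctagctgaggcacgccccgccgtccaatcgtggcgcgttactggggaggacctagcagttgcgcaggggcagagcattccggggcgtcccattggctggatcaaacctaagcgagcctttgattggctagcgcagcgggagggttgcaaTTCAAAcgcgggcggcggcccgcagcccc
Mcm5 (chr8:75109259-75109508, plus strand): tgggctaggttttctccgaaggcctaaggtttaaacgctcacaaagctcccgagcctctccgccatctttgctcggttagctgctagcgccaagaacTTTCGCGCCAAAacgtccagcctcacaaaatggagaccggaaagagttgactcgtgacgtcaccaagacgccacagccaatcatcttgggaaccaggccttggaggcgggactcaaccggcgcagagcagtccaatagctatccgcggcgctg
In the same 300-base windows TTTGAA occurred in 15 of 21 mitosis genes, in 3 of 22 replication genes and in 14.1% of all tested genes with a promoter. Either E2F motif occurred in 9 of 22 replication genes, in 1 of 21 mitosis genes (Cdk1) and in 1.72% of all. Cdk1 itself, at 1.95 against 5.31 CPM, was lower (-1.44, SE 0.10, adjusted p = 1.73e-06). Over all genes called lower, TTTGAA was in 20.4% of promoters, and over those called higher in 15.2%.

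Genes of glia and progenitors fell in part. Fabp7 (chr10:57784923-57788450), the brain lipid-binding protein of radial glia and immature astrocytes, had 742, 728 and 773 CPM in the DAPT + sErbB4 libraries, against 3051, 2805 and 2725 CPM in the vehicle libraries. The libraries within each condition lay close together and the conditions far apart, with a log2 FC of -1.94, SE 0.06, adjusted p = 2.67e-09. Of the 14 radial glia and neural stem cell genes, 6 were called lower and 2 higher. Nes, the intermediate filament nestin, had 63.2, 63.8 and 63.4 CPM in the DAPT + sErbB4 libraries, against 112, 113 and 115 CPM in the vehicle libraries (log2 FC -0.84, SE 0.03, adjusted p = 2.14e-08), and Tnc, an extracellular glycoprotein of progenitor zones, was lower as well (-0.81, SE 0.05, adjusted p = 9.37e-07). Notch1, Slc1a3 (-0.51), a glutamate transporter, and Ptprz1 (-0.49), a receptor phosphatase, were the other members called lower. The rest of the list did not follow. Its median log2 FC was -0.07, Prom1 (0.81, SE 0.06, adjusted p = 1.66e-06) and Id4 (0.59, SE 0.07, adjusted p = 7.54e-05), an inhibitor of bHLH factors, were higher, and the progenitor factors Sox2 (0.04) and Sox9 (0.00) and the filament gene Vim (-0.08) were not called.

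Astrocyte genes were divided as well, with 11 of 20 called lower and 3 higher (median -0.35). Slco1c1, a thyroid hormone transporter, had 13.7, 14.8 and 15.5 CPM in the DAPT + sErbB4 libraries, against 59.5, 59.2 and 59.2 CPM in the vehicle libraries and a log2 FC of -2.01, SE 0.05, adjusted p = 2.18e-09. Fgfr3 (-0.86, SE 0.06, adjusted p = 1.73e-06), a growth factor receptor, and Slc4a4 (-0.72, SE 0.05, adjusted p = 2.40e-06), a bicarbonate transporter, were also lower. The 3 higher members were Gjb6 (0.82, SE 0.14, adjusted p = 0.00121) and Gja1 (0.55, SE 0.05, adjusted p = 2.01e-05), the connexins that couple astrocytes to each other, and the neurotensin receptor Ntsr2 (0.41, SE 0.05, adjusted p = 1.42e-04). Gfap (0.13) and the water channel Aqp4 (0.03), at 258 ± 5.06 CPM with DAPT + sErbB4 and 254 ± 12.5 CPM with vehicle, overlapped between the conditions and were not called. Members of the list thus differed among themselves, with log2 FC between -2.01 for Slco1c1 and 0.82 for Gjb6.

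The oligodendrocyte precursor list had 5 of 12 members called lower and none higher. Olig1, a transcription factor of the oligodendrocyte lineage, had 263, 271 and 275 CPM in the DAPT + sErbB4 libraries, against 699, 709 and 713 CPM in the vehicle libraries (log2 FC -1.39, SE 0.05, adjusted p = 9.06e-09). Its partner Olig2 had 61.8, 62.6 and 61.6 CPM in the DAPT + sErbB4 libraries, against 138, 135 and 137 CPM in the vehicle libraries (log2 FC -1.14, SE 0.03, adjusted p = 2.67e-09). Cspg4 (-0.66), the NG2 proteoglycan, Matn4 (-0.66) and Pdgfra (-0.55), the receptor that precursors need to divide, were the others called lower. Sox10, a factor shared by all cells of the lineage, was at 33.1 ± 0.371 CPM with DAPT + sErbB4 and 41 ± 2.82 CPM with vehicle (-0.31, SE 0.06, adjusted p = 0.00263) and was not called, and Gpr17 (-0.05), a marker of precursors about to mature, also was not. Of 14 myelin genes, Mag (-0.63, SE 0.14, adjusted p = 0.00484) was called lower and the others, among them Mbp (-0.14), were not.

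Lists of other non-neuronal cells differed in the share of members called. It was 12.5% for microglia genes and 60% for the 10 tested smooth muscle, pericyte and fibroblast genes, against 15.1% over all genes. Of 16 microglia genes, Cx3cr1 (-1.23, SE 0.19, adjusted p = 5.52e-04) and Itgam (-0.64, SE 0.21, adjusted p = 0.0417) were called lower and none higher. None of 6 endothelial genes was called by edgeR. In the list of smooth muscle, pericyte and fibroblast genes, the actin-associated Tagln (-1.50, SE 0.15, adjusted p = 1.79e-05) and Myl9 (-1.07, SE 0.12, adjusted p = 5.30e-05), Rgs5 (-0.79) and Pdgfrb (-0.39) were lower, and the matrix proteoglycans Dcn (0.52, SE 0.07, adjusted p = 3.15e-04) and Lum (0.41, SE 0.07, adjusted p = 7.47e-04) were higher, so members of this list moved in both directions. Itgam was not called without any single library of the 6 (adjusted p = 0.064 to 0.122) or with DESeq2 (adjusted p = 0.096), limma (log2 FC -0.29), the replicate block (adjusted p = 0.0716) or unnamed loci kept (adjusted p = 0.0541). Lum was not called with limma (log2 FC 0.32).

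**Figure D2:**
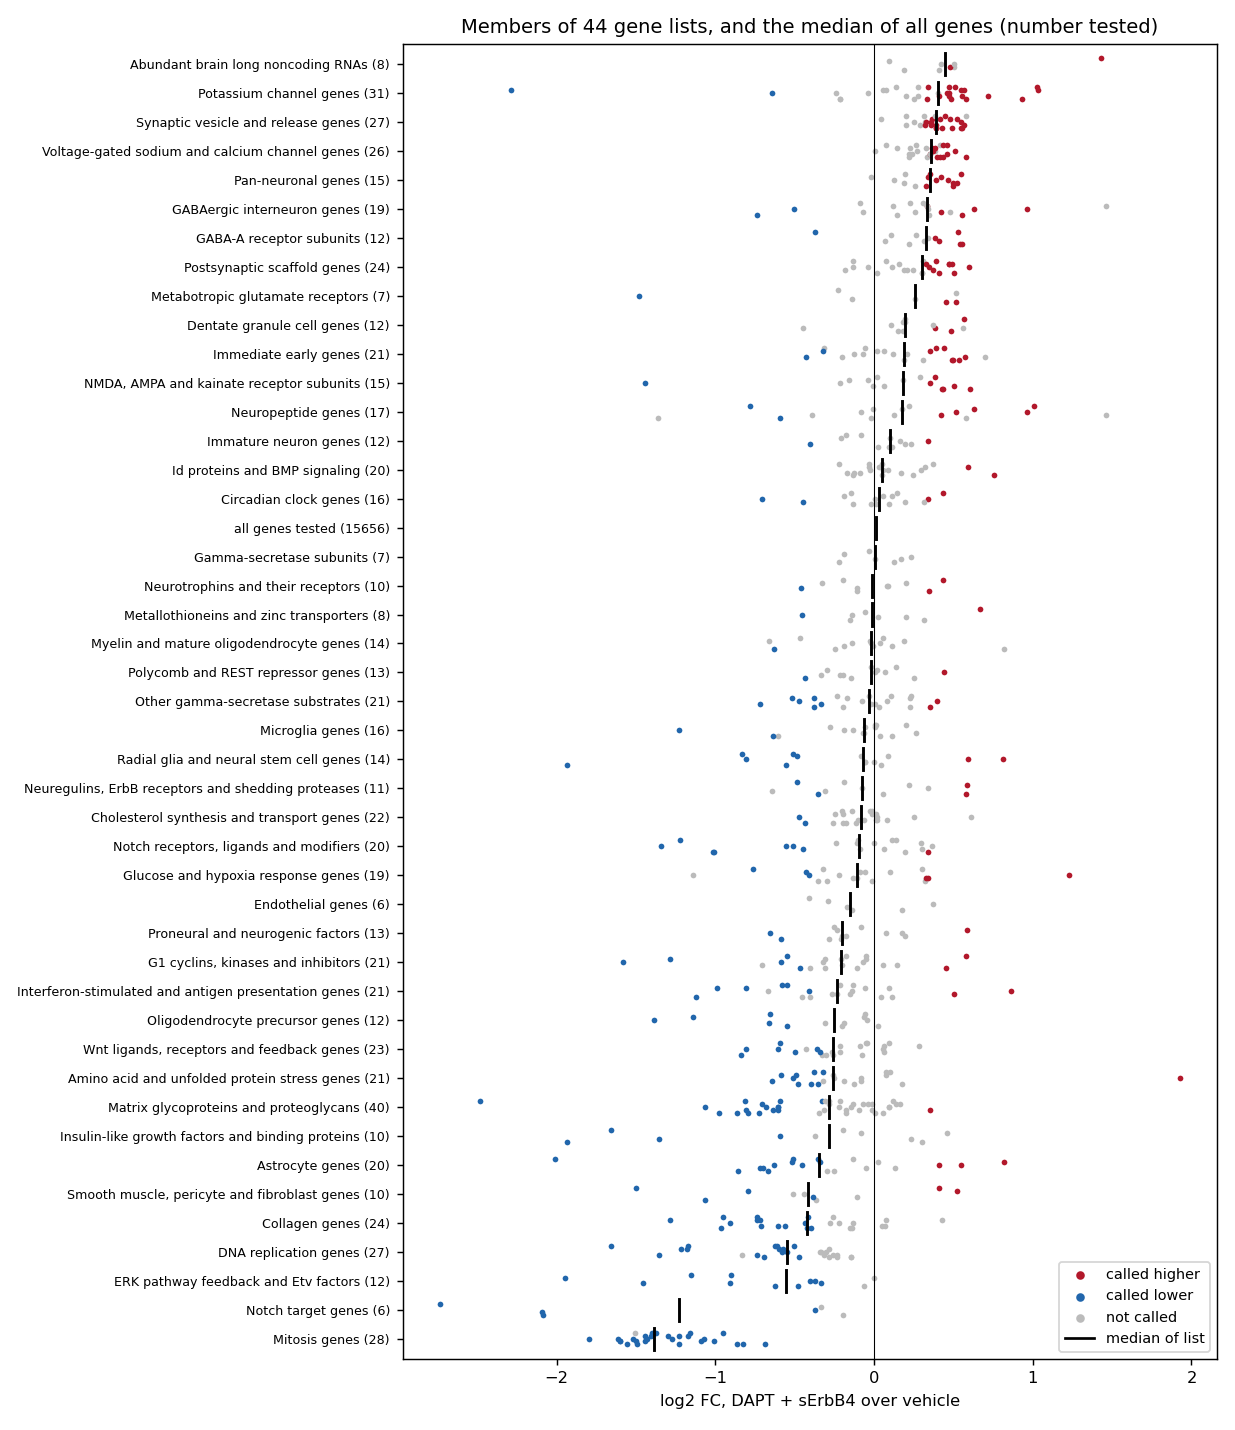
Rows are 44 gene lists and, for scale, the median of all genes tested, with the number of members tested in parentheses. Points are members' log2 FC of DAPT + sErbB4 over vehicle (red called higher, blue called lower, grey not called), bars are list medians, and lists run from noncoding RNA, channel and synapse genes, such as vesicle genes at 0.39, at the top to mitosis genes at -1.39 at the bottom.

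Neuronal genes were modestly higher. Of 15 pan-neuronal genes, 10 were called higher and none lower, with a median log2 FC of 0.35. Snap25, a SNARE protein of transmitter release, had 221, 214 and 211 CPM in the DAPT + sErbB4 libraries, against 137, 149.7 and 155 CPM in the vehicle libraries (log2 FC 0.55, SE 0.05, adjusted p = 2.23e-05). Syt1 (0.53, SE 0.08, adjusted p = 7.21e-04), the calcium sensor of release, Nefl (0.50, SE 0.07, adjusted p = 3.52e-04), a neurofilament subunit, and Stmn2 (0.50, SE 0.04, adjusted p = 7.29e-06), a tubulin-binding protein of growing axons, were higher by a like amount. Tubb3, the neuronal tubulin, was at 367 ± 13.3 CPM with DAPT + sErbB4 and 372 ± 7.05 CPM with vehicle (-0.02, SE 0.05, adjusted p = 0.822) and Map2, a dendritic microtubule protein, at 154 ± 0.710 CPM with DAPT + sErbB4 and 135 ± 7.63 CPM with vehicle (0.19, SE 0.05, adjusted p = 0.0103), and neither was called. Some glial and dividing-cell lists had lower summed levels in the same libraries. Radial glia genes summed to 3173 to 3311 CPM with DAPT + sErbB4 and 5573 to 6031 CPM with vehicle. Most of that difference was Fabp7 (means 748 and 2860 CPM), while the list median log2 FC was -0.07. Precursor genes summed to 594 to 619.7 CPM with DAPT + sErbB4 and 1149.6 to 1167 CPM with vehicle. Olig1 made up most of this second difference. Summed microglia genes (381 to 433 against 364 to 407 CPM) and summed myelin genes overlapped between the conditions. The part of glial and dividing cells in the neuronal differences was not tested.

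Genes of the synaptic vesicle and its release were higher. All 27 had a positive log2 FC (median 0.39), 18 were called higher and none lower. Syp, the vesicle protein synaptophysin, had 349.7, 335 and 337 CPM in the DAPT + sErbB4 libraries, against 229.8, 237 and 233 CPM in the vehicle libraries, and its log2 FC was 0.55, SE 0.03, adjusted p = 2.57e-07. Sv2b (0.55, SE 0.05, adjusted p = 7.53e-06), a vesicle glycoprotein, and Synpr (0.56, SE 0.04, adjusted p = 3.04e-06), a synaptophysin relative enriched in granule cells, were also higher. Slc17a6, a vesicular glutamate transporter, had a log2 FC of 0.04, whereas its relative Slc17a7 was called at 0.45, SE 0.06, adjusted p = 2.30e-04. Pclo, a scaffold of the active zone, was at 16.5 against 11 CPM with more spread (0.58, SE 0.22, adjusted p = 0.0692) and was not called. Of 24 postsynaptic scaffold genes, 10 were higher and none lower (median 0.30), led by Dlgap2 (0.60, SE 0.09, adjusted p = 3.65e-04), the kinase subunit Camk2a (0.50, SE 0.05, adjusted p = 1.34e-05) and the calmodulin-binding Nrgn (0.49, SE 0.05, adjusted p = 2.24e-05), while Dlg4, the gene of PSD-95, missed the fold limit (0.30, SE 0.04, adjusted p = 2.55e-04).

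Receptor genes moved in both directions. Among 15 NMDA, AMPA and kainate receptor subunits, 6 were higher and 1 lower. Grin2a (0.60, SE 0.14, adjusted p = 0.00694) and Grin2b (0.51, SE 0.15, adjusted p = 0.0247), NMDA receptor subunits, and Gria1 (0.43, SE 0.04, adjusted p = 1.10e-05), an AMPA receptor subunit, rose, and Gria2 (0.06) and Gria3 (-0.22) were not called. The subunit that fell was Grin2c, which had 3.83, 3.91 and 3.81 CPM in the DAPT + sErbB4 libraries, against 10.1, 10.6 and 10.7 CPM in the vehicle libraries (log2 FC -1.44, SE 0.10, adjusted p = 1.39e-06). The metabotropic receptor Grm3, which astrocytes also express, had 5.35, 5.32 and 5.73 CPM in the DAPT + sErbB4 libraries, against 15.8, 14.4 and 15.6 CPM in the vehicle libraries (log2 FC -1.48, SE 0.11, adjusted p = 1.77e-06), whereas Grm7 (0.51, SE 0.08, adjusted p = 7.21e-04) rose. Of 12 GABA-A receptor subunits 5 were higher, among them Gabra5 (0.53, SE 0.05, adjusted p = 1.74e-05), and Gabrg1 was lower (-0.37, SE 0.08, adjusted p = 0.00361). Grin2b was not called without DAPT + sErbB4 replicate 1, 2 or 3 or vehicle replicate 1 or 2 (adjusted p = 0.0514 to 0.0881). Gabrg1 was not called with limma (log2 FC -0.32).

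Potassium channel genes also moved in both directions. Of 31 tested, 17 were higher and 2 lower (11 higher without vehicle replicate 1). Kcnq3, a subunit of the M-current that limits repetitive firing, had 12, 12.7 and 12.2 CPM in the DAPT + sErbB4 libraries, against 5.71, 5.79 and 6.55 CPM in the vehicle libraries (log2 FC 1.03, SE 0.13, adjusted p = 1.00e-04). Kcna4, an A-type channel of axons, had 9.78, 8.94 and 8.54 CPM in the DAPT + sErbB4 libraries, against 3.91, 4.83 and 4.69 CPM in the vehicle libraries (log2 FC 1.03, SE 0.12, adjusted p = 7.72e-05). For both genes every DAPT + sErbB4 library was above every vehicle library, and such a lack of overlap was seen in 7210 of all 15656 genes tested. Kcnh3 (0.93, SE 0.09, adjusted p = 1.67e-05) was the next largest. Kcng4, a silent subunit that modifies other channels, had 3.96, 4.09 and 4.05 CPM in the DAPT + sErbB4 libraries, against 21.1, 19.6 and 18.4 CPM in the vehicle libraries (log2 FC -2.29, SE 0.07, adjusted p = 2.73e-09). Kcnj10, the inward rectifier of astrocytes, was also lower at 663 ± 13.1 CPM with DAPT + sErbB4 and 1033 ± 52.8 CPM with vehicle (-0.64, SE 0.07, adjusted p = 2.82e-05). All 26 voltage-gated sodium and calcium channel genes had a positive log2 FC (median 0.36) and 12 were called higher, among them Scn2a (0.58, SE 0.04, adjusted p = 2.66e-06), the main sodium channel of young axons, and Cacnb2 (0.51, SE 0.05, adjusted p = 3.08e-05), an auxiliary calcium channel subunit.

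Genes of inhibitory neurons and neuropeptides moved in both directions. Cck, which encodes cholecystokinin, had 105, 97.4 and 91.8 CPM in the DAPT + sErbB4 libraries, against 43.6, 53.1 and 54.5 CPM in the vehicle libraries (log2 FC 0.96, SE 0.10, adjusted p = 2.48e-05). Sst, the interneuron peptide somatostatin, had 235, 202 and 214 CPM in the DAPT + sErbB4 libraries, against 132, 144 and 145 CPM in the vehicle libraries (log2 FC 0.63, SE 0.06, adjusted p = 1.61e-05). Npy (0.42, SE 0.09, adjusted p = 0.00309), Lhx6 (0.55, SE 0.17, adjusted p = 0.0332) and Dlx1 (0.33, SE 0.10, adjusted p = 0.0302) were the other members of 19 interneuron genes called higher (3 in place of 5 without DAPT + sErbB4 replicate 2, vehicle replicate 1 or vehicle replicate 2). Gad1 (0.34, SE 0.13, adjusted p = 0.0716) and Gad2 (0.23, SE 0.11, adjusted p = 0.161), the enzymes that make GABA, were not called. Of the 2 members called lower, Pvalb (-0.50, SE 0.09, adjusted p = 0.00103) encodes the calcium buffer of fast-spiking interneurons. Of 17 neuropeptide genes 5 were higher and 2 lower. The higher ones were Cck, Sst, Npy, Scg2 (0.52, SE 0.06, adjusted p = 3.72e-05) and Crh (1.01, SE 0.27, adjusted p = 0.0158), and the lower ones Pdyn, the dynorphin precursor made by granule cells (-0.78, SE 0.08, adjusted p = 2.52e-05), and Gal (-0.59, SE 0.19, adjusted p = 0.0382), the galanin precursor. Of 12 dentate granule cell genes, Synpr, C1ql2 (0.49, SE 0.07, adjusted p = 4.62e-04) and C1ql3 (0.39, SE 0.08, adjusted p = 0.00332) were called higher, and Prox1, the factor that specifies granule cells, was not (0.11, SE 0.06, adjusted p = 0.251). Immature neuron genes did not move together, with Nnat higher (0.34, SE 0.07, adjusted p = 0.00362), Tubb2b lower (-0.41, SE 0.09, adjusted p = 0.00469) and Dcx, a microtubule protein of newborn neurons, not called (0.16). Of 13 proneural factors, Neurod6 was higher (0.59, SE 0.09, adjusted p = 3.75e-04), Eomes (-0.65, SE 0.17, adjusted p = 0.0149) and Insm1 (-0.58, SE 0.10, adjusted p = 9.40e-04), factors of intermediate progenitors, were lower. The share called was 36.8% for interneuron, 41.2% for neuropeptide and 25% for granule cell genes. It was 16.7% for immature neuron genes and 23.1% for proneural factors, against 15.1% over all genes. Lhx6 was not called without DAPT + sErbB4 replicate 2 or 3 or vehicle replicate 1, 2 or 3 (adjusted p = 0.0669 to 0.118). Dlx1 was not called without DAPT + sErbB4 replicate 2 or 3 or vehicle replicate 1 or 2 (adjusted p = 0.0526 to 0.122) or with limma (log2 FC 0.29) or the 6 libraries alone (adjusted p = 0.0516). Crh was not called without DAPT + sErbB4 replicate 1 or vehicle replicate 1 or 2 (adjusted p = 0.0606 to 0.0644). Gal was not called without DAPT + sErbB4 replicate 1 or 2 or vehicle replicate 1 or 2 (adjusted p = 0.0928 to 0.171) or with the 6 libraries alone (adjusted p = 0.0645) or the replicate block (adjusted p = 0.0643). C1ql3 was not called without vehicle replicate 1 (log2 FC 0.31). Nnat was not called without DAPT + sErbB4 replicate 1 or vehicle replicate 3 (log2 FC 0.30 to 0.31). Eomes was not called without DAPT + sErbB4 replicate 3 or vehicle replicate 1 (adjusted p = 0.0568 to 0.0613) or with limma (log2 FC -0.32).

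**Figure D3:**
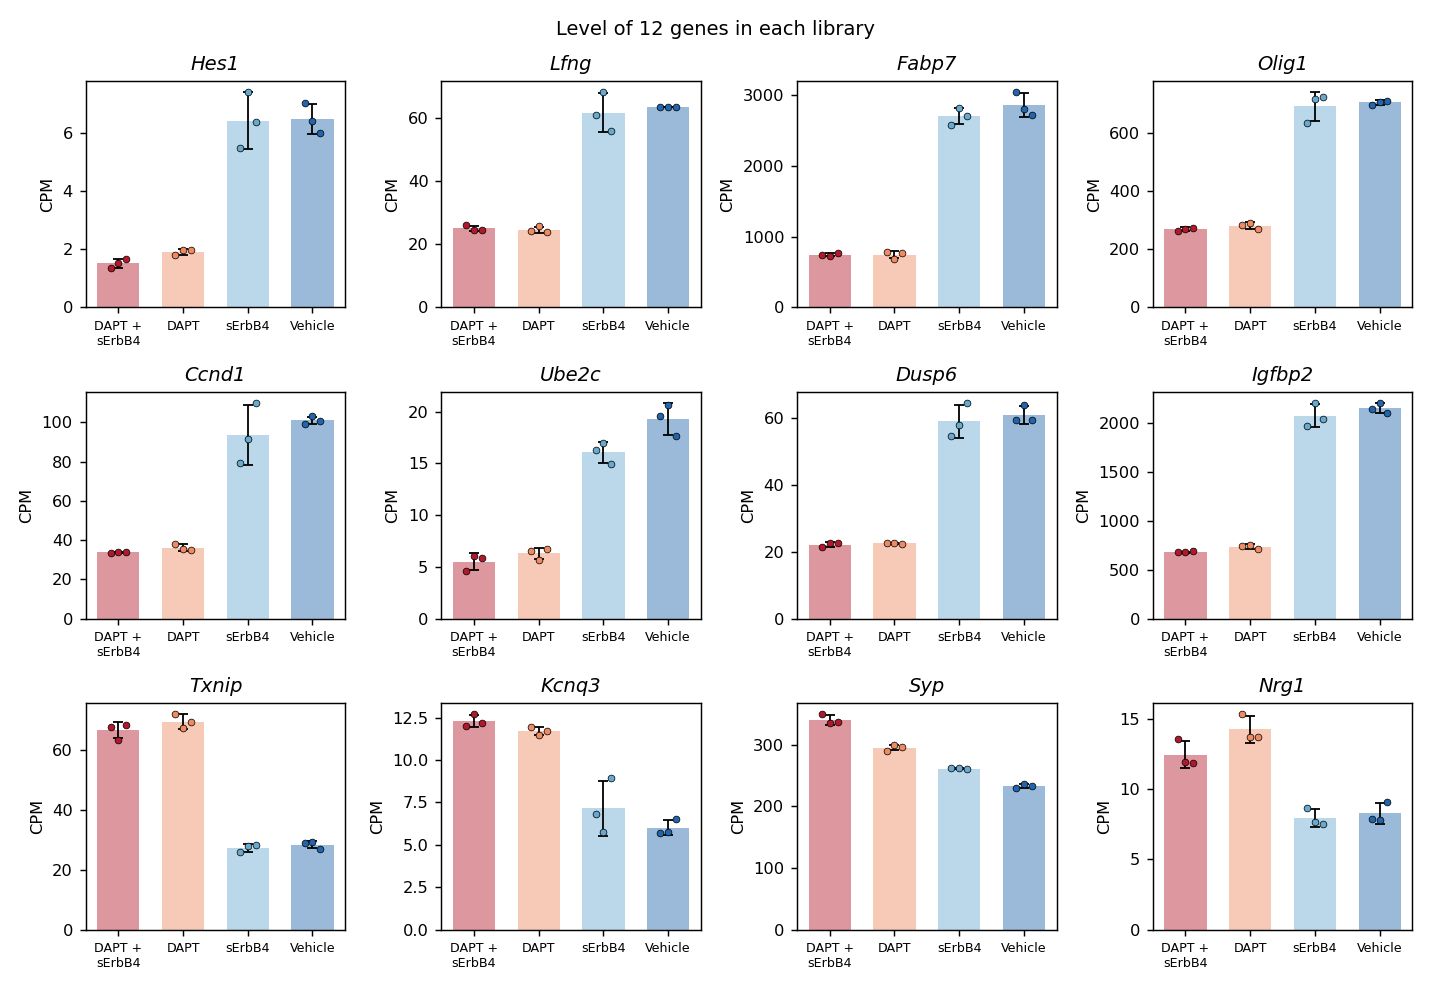
CPM of 12 genes in each library (points), with the mean (bar) and SD (whisker) of the 3 libraries of DAPT + sErbB4, DAPT, sErbB4 and vehicle, each axis starting at 0. For Hes1, Lfng, Fabp7, Olig1, Ccnd1, Ube2c, Dusp6 and Igfbp2 the DAPT + sErbB4 libraries lie below the vehicle libraries, and for Txnip, Kcnq3, Syp and Nrg1 above them.

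Growth factor signaling genes were among those that fell. Of 12 genes that the ERK pathway induces, mostly its own feedback inhibitors, 10 were called lower and none higher (median -0.55). Etv4, an ETS factor downstream of FGF receptors, had 13.9, 10.8 and 11.5 CPM in the DAPT + sErbB4 libraries, against 45.2, 45.7 and 48 CPM in the vehicle libraries (log2 FC -1.95, SE 0.07, adjusted p = 1.31e-08). Dusp6, a phosphatase that switches ERK off, had 21.3, 22.5 and 22.6 CPM in the DAPT + sErbB4 libraries, against 59.5, 63.9 and 59.3 CPM in the vehicle libraries (log2 FC -1.46, SE 0.06, adjusted p = 2.26e-08). Spry1 (-1.15, SE 0.06, adjusted p = 3.14e-07) and Spry4 (-0.91, SE 0.08, adjusted p = 7.07e-06) were lower too, and Dusp4 (-0.07) and Spred3 (0.00) were not called. Of 10 genes of the IGF list 4 were lower and none higher, and all 4 encode IGF-binding proteins, which hold IGFs outside the cell. Igfbp2 had 675, 677 and 685 CPM in the DAPT + sErbB4 libraries, against 2138, 2202 and 2102 CPM in the vehicle libraries (log2 FC -1.66, SE 0.04, adjusted p = 1.70e-09), and Igfbp3 had 138, 149 and 146 CPM in the DAPT + sErbB4 libraries, against 543, 579 and 535 CPM in the vehicle libraries (log2 FC -1.93, SE 0.07, adjusted p = 4.98e-09). Igfbp4 (-1.35, SE 0.07, adjusted p = 2.07e-07) and Igfbp5 (-0.59, SE 0.06, adjusted p = 3.32e-05) were lower as well, whereas Igf1 (0.30), Igf2 (-0.38) and Igf1r (0.23) were not called. Among 23 Wnt pathway genes 7 were lower and none higher, including the receptor Fzd9 (-0.81, SE 0.10, adjusted p = 8.52e-05), the coreceptor Lrp5 (-0.59, SE 0.06, adjusted p = 2.34e-05) and the ligands Wnt7b (-0.60, SE 0.04, adjusted p = 2.08e-06) and Wnt7a (-0.50, SE 0.12, adjusted p = 0.0111). Of 20 genes of the BMP and Id list, Id4 and Bambi (0.76, SE 0.15, adjusted p = 0.00309), a decoy receptor, were higher and none lower. That is 10% of this list, against 15.1% over all genes. Wnt7a was not called without vehicle replicate 1 (adjusted p = 0.0508).

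Extracellular matrix genes were also lower. Of 24 collagen genes 14 were called lower and none higher, led by Col16a1 (-1.29, SE 0.11, adjusted p = 7.47e-06), Col1a1 (-0.97, SE 0.09, adjusted p = 1.81e-05), Col18a1 (-0.95, SE 0.06, adjusted p = 8.80e-07) and Col4a1 (-0.91, SE 0.04, adjusted p = 8.26e-08), the last a chain of basement membranes. Of 40 matrix glycoproteins and proteoglycans 16 were lower and 1, Fbln5 (0.35, SE 0.09, adjusted p = 0.0157), higher. Vtn, the adhesive protein vitronectin, had 3.35, 2.61 and 2.45 CPM in the DAPT + sErbB4 libraries, against 15.7, 14.9 and 16.2 CPM in the vehicle libraries (log2 FC -2.49, SE 0.13, adjusted p = 1.55e-07). Thbs2 (-0.98, SE 0.06, adjusted p = 5.90e-07), an astrocyte-secreted protein, and the metalloproteinase inhibitors Timp1 (-1.06, SE 0.23, adjusted p = 0.00439) and Timp4 (-0.86, SE 0.05, adjusted p = 7.58e-07) were lower. Sparc, at 525 ± 21.5 CPM with DAPT + sErbB4 and 492 ± 41.3 CPM with vehicle (0.09), and Vcan (-0.07) were not called. Fbln5 was not called without DAPT + sErbB4 replicate 2 or vehicle replicate 1 (adjusted p = 0.0539 to 0.0639) or with limma (log2 FC 0.23).

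The genes of the pathway under study were measured as well. Nrg1 (chr8:31807452-32891609) had 13.5, 11.9 and 11.9 CPM in the DAPT + sErbB4 libraries, against 7.87, 7.81 and 9.10 CPM in the vehicle libraries, a log2 FC of 0.59, SE 0.09, adjusted p = 3.73e-04, and Nrg3 was higher by a like amount (0.58, SE 0.11, adjusted p = 0.0017). Counts are summed per gene, so the Type III isoform of Nrg1 was not measured on its own. Erbb4, the receptor whose ectodomain was applied, was at 7.26 ± 0.204 CPM with DAPT + sErbB4 and 5.75 ± 0.502 CPM with vehicle and was not called at 0.34, SE 0.14, adjusted p = 0.0867. Egfr (-0.49, SE 0.05, adjusted p = 3.23e-05) and Erbb2 (-0.35, SE 0.07, adjusted p = 0.00333) were lower, and the proteases that shed Nrg1, Adam17 (-0.31), Adam10 (0.05) and Bace1 (-0.08), were not called. None of 7 γ-secretase subunit genes was called by edgeR, with log2 FC between -0.22 for Aph1a and 0.23 for Aph1c, and Psenen at 0.00. Of 21 other substrates of the protease, 6 were lower, among them Efnb1 (-0.72, SE 0.11, adjusted p = 5.00e-04) and Sdc3 (-0.52, SE 0.06, adjusted p = 4.73e-05), and Robo1 (0.40, SE 0.07, adjusted p = 8.36e-04) and Aplp1 (0.35, SE 0.05, adjusted p = 3.55e-04) were higher, while App, the amyloid precursor protein gene, was at 518 ± 9.31 CPM with DAPT + sErbB4 and 489.7 ± 6.02 CPM with vehicle (0.08). Erbb2 was not called without DAPT + sErbB4 replicate 1 (log2 FC -0.30) or with limma (log2 FC -0.30).

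Activity and stress genes gave mixed results. Of 21 immediate early genes, a fast response to neuronal activity, 7 were higher and 2 lower. Egr4 (0.58, SE 0.17, adjusted p = 0.0228), Egr3 (0.53, SE 0.07, adjusted p = 1.93e-04), Nr4a3 (0.50, SE 0.08, adjusted p = 9.87e-04) and Arc (0.49, SE 0.11, adjusted p = 0.0063) rose, Jun (-0.32, SE 0.03, adjusted p = 1.90e-05) and Ier2 (-0.43, SE 0.12, adjusted p = 0.0211) fell, and Fos (0.12) and Egr1 (0.06) were not called. Bdnf (0.34, SE 0.07, adjusted p = 0.00227) and Vgf (0.44, SE 0.09, adjusted p = 0.00358), a neurotrophin and a gene it induces, were higher, and Gfra1 was lower (-0.46, SE 0.06, adjusted p = 2.47e-04). Of 21 genes of amino acid and protein folding stress 9 were lower, including Slc3a2 (-0.64, SE 0.05, adjusted p = 3.20e-06) and the serine synthesis enzymes Phgdh (-0.51, SE 0.06, adjusted p = 5.86e-05) and Psat1 (-0.49, SE 0.04, adjusted p = 7.92e-06), and 1, Ass1 (1.93, SE 0.53, adjusted p = 0.0172), was higher. In the interferon and antigen presentation list 6 were lower, led by Ifitm3 (-0.99, SE 0.07, adjusted p = 1.14e-06), and Ifit3 (0.86, SE 0.16, adjusted p = 0.00154) and Ifit2 (0.50, SE 0.08, adjusted p = 7.31e-04) were higher. Txnip, a thioredoxin-binding protein that cells raise with glucose, had 67.7, 63.5 and 68.5 CPM in the DAPT + sErbB4 libraries, against 29, 29.3 and 27 CPM in the vehicle libraries (log2 FC 1.23, SE 0.05, adjusted p = 2.62e-08), while Hk2 (-0.76, SE 0.06, adjusted p = 5.49e-06), a hexokinase, Vegfa (-0.43) and Pfkfb3 (-0.41) were the 3 of 19 glucose and hypoxia response genes called lower (6 without vehicle replicate 3). Slc2a3 (0.34, SE 0.06, adjusted p = 0.00104), a glucose transporter, and Pdk1 (0.33, SE 0.04, adjusted p = 2.05e-04), a kinase that restrains pyruvate dehydrogenase, were the other members called higher. Of 8 long noncoding RNAs, Neat1 and Rian (0.48, SE 0.11, adjusted p = 0.00703) were higher (5 higher in a fit of the 6 libraries alone). Of 22 cholesterol genes 2 were lower and none higher, and of 16 clock genes 2 were higher and 2 lower. In each of the lists of 8 metallothionein and zinc transporter genes and of 13 polycomb and REST genes, 1 member was higher and 1 lower. Over all genes tested 15.1% were called. Egr4 was not called without DAPT + sErbB4 replicate 1 or 3 or vehicle replicate 1 or 2 (adjusted p = 0.0519 to 0.107). Jun was not called without DAPT + sErbB4 replicate 1 or vehicle replicate 1 (log2 FC -0.31 to -0.32) or with limma (log2 FC -0.29) or unnamed loci kept (log2 FC -0.32). Ier2 was not called without DAPT + sErbB4 replicate 1 or 3 or vehicle replicate 1 (adjusted p = 0.054 to 0.0898). Bdnf was not called without DAPT + sErbB4 replicate 2 or vehicle replicate 1 (log2 FC 0.31 to 0.32). Ass1 was not called without DAPT + sErbB4 replicate 3 or vehicle replicate 1 or 3 (adjusted p = 0.0565 to 0.0743) or with DESeq2 (adjusted p = 0.132). Slc2a3 was not called without DAPT + sErbB4 replicate 2 or vehicle replicate 2 (log2 FC 0.31). Pdk1 was not called without DAPT + sErbB4 replicate 3 (log2 FC 0.31) or with limma (log2 FC 0.26).

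The 15 largest rises and the 15 largest falls among called genes that averaged 5 CPM or more and did not overlap included genes of several kinds. Padi2, which converts arginine to citrulline in proteins, had 33.6, 34 and 34.7 CPM in the DAPT + sErbB4 libraries, against 12.6, 12.5 and 11.8 CPM in the vehicle libraries (log2 FC 1.47, SE 0.04, adjusted p = 2.73e-09). Ass1, an enzyme of arginine synthesis, had 20.4, 27 and 31.5 CPM in the DAPT + sErbB4 libraries, against 5.52, 9.55 and 6.14 CPM in the vehicle libraries, with more spread than the others named (log2 FC 1.93, SE 0.53, adjusted p = 0.0172). The long noncoding RNA Neat1, the scaffold of paraspeckles, had 113, 123 and 108 CPM in the DAPT + sErbB4 libraries, against 40.3, 32.4 and 54.7 CPM in the vehicle libraries (log2 FC 1.43, SE 0.25, adjusted p = 0.00117). Ptgds (1.33, SE 0.08, adjusted p = 7.32e-07), a prostaglandin synthase, Lgi4 (1.22, SE 0.07, adjusted p = 4.79e-07), a secreted glial protein, Traf1 (1.27, SE 0.10, adjusted p = 4.70e-06), an adaptor of TNF receptors, Ahnak (1.30, SE 0.16, adjusted p = 1.12e-04), Pcsk1 (1.06, SE 0.14, adjusted p = 1.71e-04), the prohormone convertase of neuroendocrine cells, and Hpca (1.05, SE 0.15, adjusted p = 3.34e-04), the hippocampal calcium sensor hippocalcin, were also higher. So were Phyhd1 (1.27), C530044C16Rik (1.54) and 1190005I06Rik (1.72). 1190005I06Rik was not called without DAPT + sErbB4 replicate 2 or 3 or vehicle replicate 2 or 3 (adjusted p = 0.0545 to 0.0719).

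Among the falls, Tgm1, a transglutaminase, had 3.48, 3.76 and 4.23 CPM in the DAPT + sErbB4 libraries, against 25.5, 23.3 and 23.9 CPM in the vehicle libraries (log2 FC -2.66, SE 0.09, adjusted p = 6.88e-09). Btbd17 had 17.9, 15.9 and 16.6 CPM in the DAPT + sErbB4 libraries, against 73.2, 68.4 and 68.8 CPM in the vehicle libraries (log2 FC -2.06, SE 0.08, adjusted p = 1.68e-08). Nfkbiz (-1.77, SE 0.06, adjusted p = 9.06e-09), a nuclear cofactor of NF-κB, Cebpd (-1.74, SE 0.23, adjusted p = 1.92e-04), a transcription factor of the acute phase response, and Steap4 (-1.85, SE 0.13, adjusted p = 1.29e-06), a metalloreductase induced in inflammation, were lower. Pbk (-2.0, SE 0.17, adjusted p = 7.82e-06), a mitotic kinase, and Upp1 (-1.72, SE 0.11, adjusted p = 9.37e-07), uridine phosphorylase, were lower as well. H2ac10 (-1.75, SE 0.20, adjusted p = 6.95e-05) encodes a histone H2A with near-identical copies, and its count is uncertain for that reason.

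The same vehicle libraries also serve as the control for each agent alone, so the values that follow share their control and are set side by side without a test of likeness. Hes1 had a log2 FC over vehicle of -2.09 with both agents, -1.76 with DAPT and -0.01 with sErbB4. Fabp7 had -1.94, -1.93 and -0.08 in the same order, Olig1 -1.39, -1.33 and -0.03, and Ube2c -1.79, -1.60 and -0.26. The genes that rose gave 1.23, 1.29 and -0.06 for Txnip, and 1.03, 0.96 and 0.24 for Kcnq3. Cck (0.96, 0.53 and 0.30) and Syp (0.55, 0.34 and 0.17) had a positive value with each agent alone. By edgeR Syp was called with DAPT alone (adjusted p = 1.10e-05) and not with sErbB4 alone (adjusted p = 0.189). As list medians in the same order, mitosis genes had -1.39, -1.26 and -0.08, and synaptic vesicle genes 0.39, 0.28 and 0.13.

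**Figure D4:**
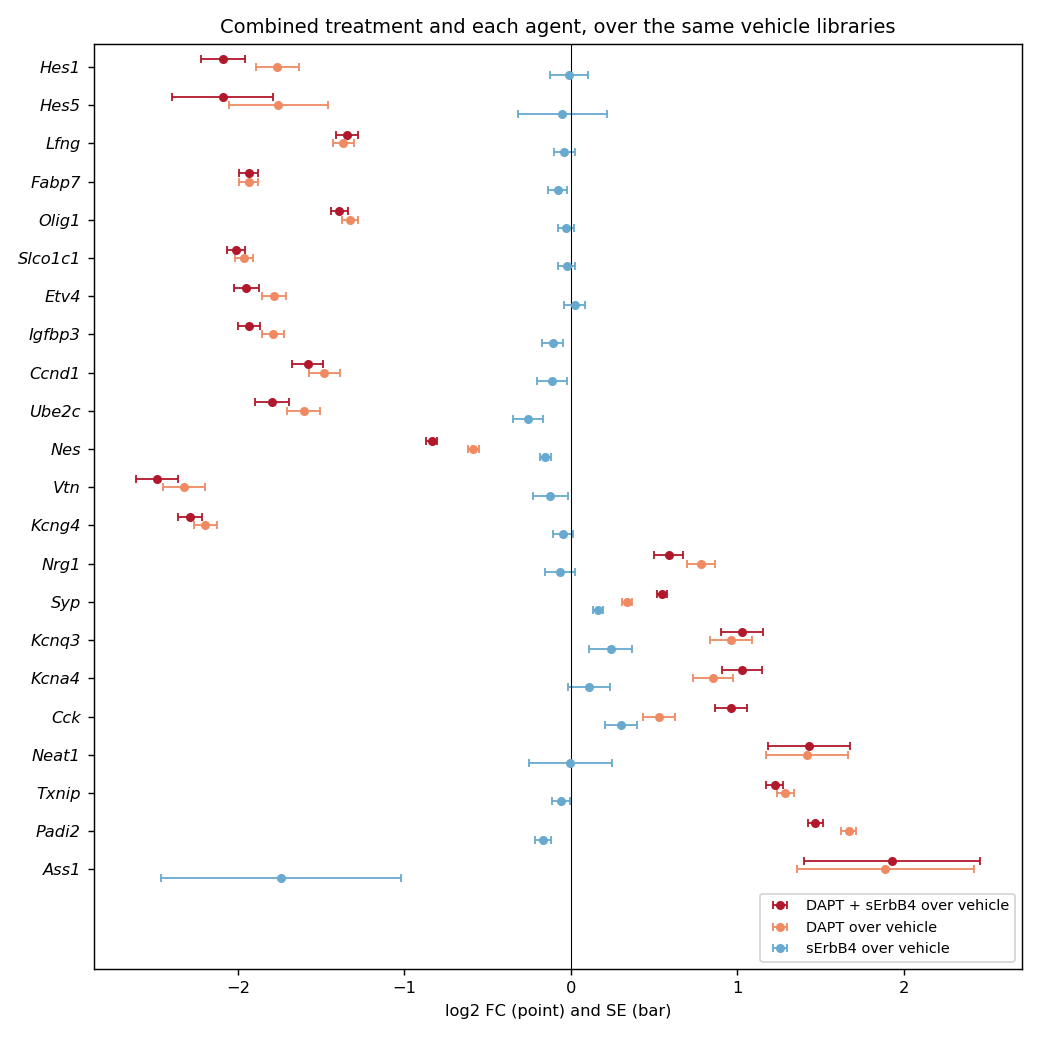
Log2 FC (points) with SE (bars) of 22 genes for DAPT + sErbB4, DAPT and sErbB4, each over the same 3 vehicle libraries. Fabp7, for example, lies at -1.94, -1.93 and -0.08, and Ass1 at 1.93, 1.89 and -1.74 with wide SE bars.

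What sErbB4 added in the presence of DAPT was tested directly as DAPT + sErbB4 against DAPT. No gene was called by edgeR (0% of 15656, smallest adjusted p 0.0795), with 1442 genes at an unadjusted p under 0.05 and 9 called by DESeq2. The 5 genes with the smallest p were Pvalb (log2 FC -0.67, SE 0.08, adjusted p = 0.0795), Nes (-0.25, SE 0.03, adjusted p = 0.0795), Eln (-0.34, SE 0.05, adjusted p = 0.0795), which encodes elastin, Syp (0.21, SE 0.03, adjusted p = 0.0795) and Adamts1 (-0.25, SE 0.04, adjusted p = 0.114), a matrix protease. Pvalb had 3.44, 3.69 and 3.88 CPM in the DAPT + sErbB4 libraries, against 5.46, 5.90 and 6.14 CPM in the DAPT libraries. Syp had 349.7, 335 and 337 CPM in the DAPT + sErbB4 libraries, against 290.4, 299 and 296 CPM in the DAPT libraries, without overlap. An adjusted p above 0.05 does not show that these conditions are alike, so intervals are given. Of the 2361 genes called against vehicle, 1390 had a 95% interval of the DAPT + sErbB4 over DAPT log2 FC that lay inside 0.32 in both directions. These intervals rest on the SE defined above, which is too small for some genes, so the count may be too high. Among those averaging 5 CPM or more, 1312 of 1809 did, so the count depends on level. The same count over all genes tested was not made, so these counts do not set the called genes apart from others. In this test 20.3% of the 2361 genes had an unadjusted p under 0.05 by edgeR, against 9.21% of all genes. The 2361 genes were selected with the same DAPT + sErbB4 libraries, which favours a larger share, so the difference cannot be read as an effect of sErbB4. For Fabp7 the 95% interval was -0.12 to 0.12, for Lfng -0.12 to 0.17, for Ccnd1 -0.31 to 0.11 and for Hes1, a low gene, -0.65 to 0.00.

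Whether the combined change departed from the sum of the changes with each agent was tested as an interaction. By edgeR 1 gene was called (0.00639%), with 565 at an unadjusted p under 0.05 and 4 called by DESeq2. It was Htd2, which had 2.44, 3.11 and 4.13 CPM with DAPT + sErbB4, 2.65, 3.40 and 3.27 CPM with DAPT, 0 in all 3 sErbB4 libraries and 3.13, 2.70 and 3.78 CPM with vehicle (adjusted p = 0.00156). Its levels with DAPT + sErbB4 and with vehicle overlapped. In RefSeq Htd2 and Rpp14 span the same bases, chr14:8080313-8091846, so counts can be split between them and the value is uncertain. Rpp14, named after its values were seen, had 16, 17.7 and 15.1 CPM with DAPT + sErbB4, 17.2, 16.7 and 18.4 CPM with DAPT, 19.7, 20.4 and 21.7 CPM with sErbB4 and 17, 15.5 and 15.8 CPM with vehicle. The next smallest p values belonged to Eln (-0.43, SE 0.07, adjusted p = 0.268), Cox20 (0.93, SE 0.15, adjusted p = 0.268), Ptpn4 (0.47, SE 0.08, adjusted p = 0.281) and Mir7118, none of which was called. Cox20, an assembly factor of cytochrome oxidase, had 7.00, 7.13 and 7.36 CPM with DAPT + sErbB4, 7.02, 5.94 and 7.09 CPM with DAPT, 8.25, 8.04 and 8.06 CPM with sErbB4 and 13.6, 17.2 and 12.8 CPM with vehicle, so vehicle alone was high. For Hes1 the departure was -0.32 (95% interval -0.73 to 0.09), for Fabp7 0.08 (-0.09 to 0.25) and for Syp 0.04 (-0.05 to 0.13).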

How the data were processed

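RNA of hippocampal cultures was sequenced in 12 libraries, 3 each with DAPT + sErbB4, DAPT, sErbB4 and vehicle. Per the methods and processing notes, Trimmomatic was used for trimming, HISAT2 for alignment to the mouse genome (mm10) and StringTie for transcript assembly, with FastQC, MultiQC, IsoformSwitchAnalyzeR and limma also named (versions not given in the sources used here). The authors deposited 1 estimated count for each gene and library, not normalised between libraries and not whole numbers. They were rounded to whole counts. Of 21312 loci, 1976 have no gene name and were left out with 46.0 to 48.8% of the counts of the 6 libraries compared.

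Counts were filtered by edgeR's filterByExpr, normalised by TMM and fitted with 4 condition means (edgeR 4.0.16, limma 3.58.1, DESeq2 1.42.0, R 4.3.3). The model has 8 residual degrees of freedom, and p values were adjusted by Benjamini-Hochberg over 15656 genes, with a call at an adjusted p under 0.05 and a log2 FC beyond 0.32. In simulated counts for DAPT + sErbB4 against vehicle (15416 genes), 94 of 100 genes changed 1.5-fold and 96 of 100 changed 2-fold were called, with 8 false calls. The changed genes were drawn from those averaging 5 CPM or more, and the counts followed the spread estimated by the same fit. These rates therefore do not cover genes at lower levels or a spread that the fit misjudged. A count of 3 per library was taken as the floor for genes at 0 and covers counting error only.

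The 44 gene lists and the named genes were chosen with earlier results of these data known. Named were the 15 largest changes in each direction among called genes averaging 5 CPM or more without overlap. From each list up to 4 called members averaging 5 CPM or more were named and up to 2 not called, with Nrg1, Erbb4, the Notch receptors and Notch targets, and the 5 smallest p values of the other tests. Further list members, and those completing a count of 5 or fewer, were named after their values were seen, and some genes that the rule names are not reported here. Promoters came from RefSeq (GRCm38.p6), where 11891 of 15656 genes matched by symbol. Alternatives were another normalisation, no filter, DESeq2, limma on log2(CPM + 2) with cyclic loess, the 6 libraries alone, replicate number as a block, unnamed loci kept, Rn45s left out and each of the 6 libraries left out.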

Additional observations from a re-analysis of the deposited data

Results flagged for a closer look

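Htd2 was marked because its change with sErbB4 differed with and without DAPT, with a fitted departure from additivity of 9.41 on the log2 scale (adjusted p = 0.00156, edgeR). Its levels were 2.44, 3.11 and 4.13 CPM with DAPT + sErbB4, 2.65, 3.40 and 3.27 CPM with DAPT, 0 in the 3 sErbB4 libraries and 3.13, 2.70 and 3.78 CPM with vehicle, so the fitted size depends on the prior count and is no bound. The value bears on the sErbB4 libraries and not on DAPT + sErbB4 against vehicle, where Htd2 was not called (0.01, SE 0.21, adjusted p = 0.982).

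Loci without a gene name were tested outside the main measurement. When they were kept in the fit, 71 of 1956 tested were called higher and 125 lower in DAPT + sErbB4 than in vehicle. In that fit 1055 of 15687 named genes were called higher and 1254 lower, so both shares were smaller among unnamed loci. The unnamed loci have no name in the deposited values and are given as counts.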

How the results depend on the processing

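Counts of genes called between DAPT + sErbB4 and vehicle stayed within 1.5 times the main 2361 under every alternative run. They were 2360 with DESeq2 size factors in edgeR, 2338 with no filter, 2247 with DESeq2, 1833 with limma, 2437 with the 6 libraries alone, 2309 with unnamed loci kept and 2358 without Rn45s. Leaving out 1 library gave 2011 to 2358 genes, 2011 without vehicle replicate 1. With the replicate block 2314 genes were called, of which 2270 were among the main calls. Replicate numbers were not taken as pairs, since deviations of libraries with the same number correlated at 0.16, -0.03 and -0.11. DAPT + sErbB4 against DAPT gave 0 calls in edgeR, 9 with DESeq2 and 0 to 1 with 1 library left out (1 without DAPT + sErbB4 replicate 3), and the departure from additivity gave 1 call in edgeR, 4 with DESeq2 and 1 to 2 with 1 library left out (2 without that same library). Neither has a value with the 6 libraries alone. No named gene that was called changed sign in any of these fits. Named genes that were not called and whose log2 FC changed sign were Psenen -0.000350 with DESeq2, Htd2 -0.0124, Rn45s 0.0532, Sox9 0.0300 and Tubb3 0.0433 with limma, Rbpj 0.00119 with the 6 libraries alone, Htd2 -0.00997 and Sox9 0.000922 with the replicate block, Rbpj 0.00408, Sox9 0.00422 and Spred3 0.000604 with unnamed loci kept, Rbpj 0.00229 and Sox9 0.00212 with Rn45s left out. Leaving out 1 library gave such genes log2 FC of Aqp4 -0.00591 to 0.0652, Dll4 -0.345 to 0.265, Gpr17 -0.121 to 0.0132, Gria2 -0.000994 to 0.188, Htd2 -0.205 to 0.173, Mir7118 -0.0458 to 0.709, Psenen -0.0417 to 0.0721, Rbpj -0.0533 to 0.0327, Rpp14 -0.0542 to 0.0676, Slc17a6 -0.0490 to 0.114, Sox9 -0.0453 to 0.0707, Spred3 -0.0708 to 0.0741, Tubb3 -0.0463 to 0.00569, Vcan -0.118 to 0.000796. Levels of Heyl with DAPT + sErbB4 lay under what 3 counts are worth.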

Other observations

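Genes outside the lists were examined after their values were seen, and the values are given without a test of a theme. Lcn2, the acute phase protein lipocalin 2, had 446, 487 and 546 CPM in the DAPT + sErbB4 libraries, against 1339, 1557 and 1326 CPM in the vehicle libraries (log2 FC -1.51, SE 0.12, adjusted p = 3.23e-06). Icam1 (-1.43, SE 0.09, adjusted p = 7.30e-07) and Vcam1 (-0.86, SE 0.07, adjusted p = 3.10e-06), adhesion molecules, Socs3 (-1.05, SE 0.13, adjusted p = 1.25e-04), a feedback inhibitor of cytokine receptors, and the complement gene C3 (-0.71, SE 0.10, adjusted p = 2.64e-04) were lower too. The chemokine genes Ccl2 and Cxcl1 were low, at 0.794 against 3.75 CPM and 1.01 against 4.52 CPM in DAPT + sErbB4 and vehicle libraries, with log2 FC of -2.21, SE 0.36, adjusted p = 7.98e-04 and -2.14, SE 0.28, adjusted p = 1.88e-04. Nfkbia, a direct target of NF-κB, overlapped between the conditions (-0.20, SE 0.10, adjusted p = 0.152) and was not called. With DAPT alone Lcn2 had a log2 FC over the same vehicle libraries of -1.34, and with sErbB4 alone -0.15.

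Srebf1, the factor of fatty acid synthesis genes, had 27.5, 28.1 and 28.1 CPM in the DAPT + sErbB4 libraries, against 69.7, 67 and 66.3 CPM in the vehicle libraries (log2 FC -1.28, SE 0.04, adjusted p = 3.23e-09), and Thrsp, a gene that thyroid hormone induces, was lower (-1.0, SE 0.06, adjusted p = 3.68e-07). Dio2, the enzyme that activates thyroid hormone in astrocytes, had 29.9, 30.1 and 31.6 CPM in the DAPT + sErbB4 libraries, against 70.8, 66.3 and 66.8 CPM in the vehicle libraries (log2 FC -1.16, SE 0.05, adjusted p = 1.94e-08), beside the transporter Slco1c1 at -2.01. Ptn, a secreted growth factor of glia, had 347, 354 and 358 CPM in the DAPT + sErbB4 libraries, against 731, 690.0 and 678 CPM in the vehicle libraries (log2 FC -0.99, SE 0.03, adjusted p = 4.96e-09), and the kinase Lyn was lower (-1.71, SE 0.06, adjusted p = 3.33e-09). Cyp24a1, which breaks down vitamin D, was at 0.475 against 4.75 CPM (log2 FC -3.32, SE 0.19, adjusted p = 3.33e-07).

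Gmnc, which starts the program of multiciliated cells, had 0.870, 1.23 and 0.889 CPM in the DAPT + sErbB4 libraries, against 0.235, 0.281 and 0.319 CPM in the vehicle libraries (log2 FC 1.83, SE 0.31, adjusted p = 0.00106). Foxj1, the main factor of motile cilia, was at 15.9 ± 6.21 CPM with DAPT + sErbB4 and 11.3 ± 10.8 CPM with vehicle, overlapped between the conditions and was not called (0.47, SE 0.61, adjusted p = 0.633), nor was Mcidas (0.64, SE 0.25, adjusted p = 0.0722).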
